A study of Lotus japonicus with 10 samples.

Results

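The late isoflavonoid enzymes described here are the PTR, VR and IFR genes on a focused array for Lotus japonicus, a model legume. They were chosen by name alone, as every probe whose systematic name starts with PTR, VR or IFR followed directly by a digit. That rule gave 26 probes for 13 names out of 5716 probes for 3148 names. PTR had 4 probes for 2 names, VR 6 probes for 3 names and IFR 16 probes for 8 names. Each of the 13 names had 2 probes, here called probe 1 (the brighter over all arrays) and probe 2.

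Isoflavonoid phytoalexins are antimicrobial compounds that legumes make after attack or chemical elicitation. Isoflavone reductase (IFR) reduces a hydroxylated isoflavone to an isoflavanone, and vestitone reductase (VR) then reduces vestitone to the alcohol from which a pterocarpan ring is closed. Pterocarpan reductase, as PTR is read here, opens that ring again to give an isoflavan, and the isoflavan vestitol is the best known phytoalexin of Lotus. IFR and PTR belong to one family of similar reductases, and VR belongs to the family of dihydroflavonol reductases, so a name on an array does not by itself fix which substrate an enzyme uses.

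All plants were Lotus japonicus MG20, grown in a glasshouse, and only mature leaves were used. Leaves of 2 groups had been cut off and shaken at 200 rpm and 28 °C in 10 mM glutathione (GSH), a thiol tripeptide that elicits defence responses, for 3 h (3 arrays) or 6 h (3 arrays). Another 4 arrays came from unelicited leaves given a time of 0 h. No group of detached leaves shaken without GSH is among the 10 arrays, so the effects of GSH, detachment, submersion and time in liquid cannot be told apart. The labels call the arrays of a group biological replicates without saying which plants or leaves they came from, so p-values measure only the spread between the samples analysed. In whole leaves, more RNA per cell and more cells of an expressing type also cannot be told apart.

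Values are log2 signals, that is, log2 of the spot intensity minus log2 of the array's 75th percentile, so 0 marks the 75th percentile of an array and a step of 1 is a doubling. Between 46.3% and 66.6% of probes per array were well above background by the scanner's own test, and no spot was saturated. Markers were looked for only at the start of a probe's name, after an optional Lj. No name found this way was a leaf photosynthesis, lamina, nodule or root marker, so the leaf label was not checked. Markers named in another way would have been missed. LEAFY, the only floral marker found, had 6 probes, of which 1 was well above background, on 1 array.

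Unelicited replicates 1 and 2 were hybridised on slide 1 and the other 8 arrays on slide 2, and each slide was scanned on its own day. The slides matter for these genes. All 20 PTR, VR and IFR probes that could be tested were higher in the unelicited leaves of slide 2 than in those of slide 1, against 49.5% of all tested probes. The median difference, slide 2 minus slide 1, was 1.61 for these 20 probes and −0.01 for all tested probes, and it exceeded 1 for 12 of the 20, against 21.2% of all. Whether this difference came from the slides, the scans or the plants was not tested, and most fold changes and list counts below are therefore given also from the 8 arrays of slide 2 alone. A value with no slide named is from all arrays.

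The first question is which of these genes differed after 3 h in GSH. Both PTR genes, VR1 and VR3, and IFR6, IFR7, IFR4 and IFR2 were higher than in unelicited leaves, while VR2 and IFR5 were lower. Of the rises, that of PTR1 was the largest and that of IFR2 the smallest. Of the 20 probes tested, 16 were higher and 4 were lower at an adjusted p under 0.05 in limma, and the median log2 fold change of the 20 was 4.84. Change was common on this array, since 74.2% of all tested probes passed, 37.5% as higher and 36.7% as lower, with a median of −0.05. On slide 2 alone 14 of the 20 were higher, 4 were lower and both IFR2 probes did not pass, and their median was 3.36. There 78.1% of all tested probes passed, 38.9% as higher and 39.2% as lower.

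No probe of the 20 had overlapping groups at 3 h, with 16 entirely above and 4 entirely below the unelicited arrays. Groups also did not overlap for 75.6% of all tested probes, 38.3% above and 37.4% below. The plot of log2 signals by array shows these values for every tested probe.

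**Figure D1:**
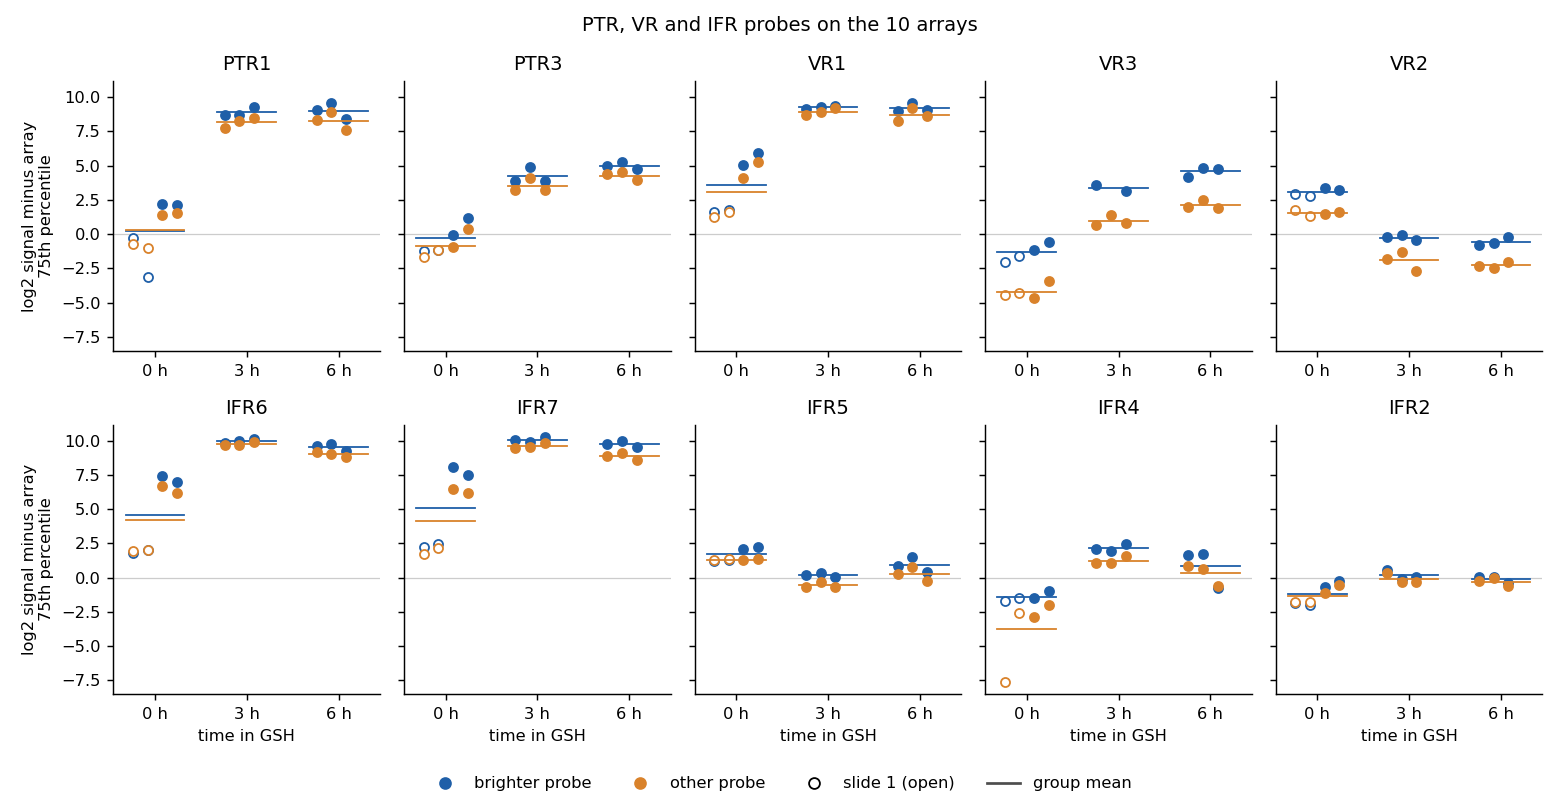
Log2 signal (minus the array's 75th percentile, vertical axis) of both probes of the 10 tested PTR, VR and IFR names in unelicited leaves (0 h) and after 3 h and 6 h in GSH, 1 point per array, open for slide 1, with lines at group means. VR2 and IFR5 lie lower after GSH, the other names lie higher, and the open points of PTR1, VR1, IFR6 and IFR7 lie below the filled unelicited ones.

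PTR1_chr3.CM0216.40.nd, a pterocarpan reductase by name, had probe 1 log2 signals of 8.68, 8.69 and 9.25 in leaves after 3 h in GSH, against −0.28, −3.16, 2.23 and 2.12 in unelicited leaves. Before scaling these were intensities of 168000, 228000 and 260000 after 3 h and of 271, 25.5, 4800 and 2750 in unelicited leaves. All 3 elicited arrays were far above all 4 unelicited ones, whose own values were scattered. The log2 fold change was 8.65 (SE 1.10, adjusted p = 4.70e-05), or 401-fold, and 6.70 (SE 0.37) on slide 2 alone, or 104-fold. Left out one at a time, unelicited replicates 2, 3 and 4 moved it to 7.52, 9.31 and 9.28. Probe 2 read 7.76, 8.23 and 8.44 after 3 h, against −0.73, −0.98, 1.37 and 1.55 in unelicited leaves, which gave 7.84 (SE 0.65, adjusted p = 2.22e-06) and 6.68 on slide 2 alone.

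PTR3_chr3.CM0216.20.nd, the other pterocarpan reductase name, had probe 1 signals of 3.85, 4.91 and 3.90 after 3 h, against −1.25, −1.13, −0.09 and 1.19 in unelicited leaves. Its groups did not overlap either, and 3 h replicate 2 was about 1 above the other elicited arrays. The log2 fold change of probe 1 was 4.54 (SE 0.56, adjusted p = 3.92e-05), or 23.2-fold, and 3.67 on slide 2 alone. Probe 2 gave 4.36 (SE 0.45, adjusted p = 1.13e-05) and 3.82.

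Of the vestitone reductase names, VR1_chr1.CM1255.320.nc had probe 1 signals of 9.16, 9.27 and 9.36 after 3 h, against 1.64, 1.72, 5.01 and 5.93 in unelicited leaves. The elicited arrays lay within 0.2 of each other, and the unelicited ones fell into a low pair on slide 1 and a higher pair on slide 2. Its log2 fold change was 5.69 (SE 0.96, adjusted p = 0.000341), or 51.5-fold, and 3.79 (SE 0.33) on slide 2 alone. Without unelicited replicate 1, 2 or 4 it was 5.04, 5.07 or 6.47. Probe 2 rose by 5.88 (SE 0.85, adjusted p = 0.000123), and by 4.25 on slide 2 alone, with 5.28 and 6.60 without unelicited replicates 1 and 4.

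VR3_chr1.CM1255.310.nc also rose. Its probe 1 read 3.57 and 3.13 after 3 h, the spot of replicate 2 having been left out as an outlier, against −2.03, −1.62, −1.13 and −0.58 in unelicited leaves. The log2 fold change was 4.69 (SE 0.44, n = 2 and 4, limma adjusted p = 9.80e-06), or 25.8-fold, and 4.21 on slide 2 alone. Probe 2, which had all 3 elicited spots and was dim on 1 unelicited array, read 0.68, 1.40 and 0.83, against −4.48, −4.28, −4.69 and −3.45. It gave 5.19 (SE 0.35, adjusted p = 5.41e-07), with 5.04 on slide 2 alone, so this probe depended little on the slide. In unelicited leaves slide 2 was above slide 1 by 0.97 on probe 1 and by 0.31 on probe 2.

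VR2_chr1.CM0017.190.nc went the other way. Its probe 1 read −0.20, −0.10 and −0.47 after 3 h, against 2.89, 2.77, 3.36 and 3.22 in unelicited leaves. The unelicited arrays of both slides agreed within 0.6, and every elicited array was lower by more than 2. The log2 fold change was −3.32 (SE 0.27, adjusted p = 1.85e-06), 9.96-fold lower, and −3.55 on slide 2 alone. Probe 2 fell by 3.45 (SE 0.34, adjusted p = 7.59e-06), with −3.46 on slide 2 alone.

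Among the isoflavone reductase names, IFR6 and IFR7, which are neighbours on 1 contig, behaved alike. IFR6_chr2.CM0249.1070.nc had probe 1 signals of 9.81, 9.98 and 10.11 after 3 h, against 1.79, 2.00, 7.44 and 6.97 in unelicited leaves. IFR7_chr2.CM0249.1080.nc had 10.01, 9.92 and 10.27 after 3 h, against 2.26, 2.47, 8.09 and 7.49 in unelicited leaves. For both, the unelicited arrays of slide 2 were already more than 4 above those of slide 1, and all elicited arrays were higher still. The size of these rises therefore differed with the unelicited arrays used. The IFR6 fold change was 5.42 (SE 1.30, adjusted p = 0.00342) from all arrays and 2.77 (SE 0.28) on slide 2 alone, 42.9-fold and 6.81-fold. That of IFR7 was 4.99 (SE 1.33, adjusted p = 0.00627) and 2.28 (SE 0.29), 31.7-fold and 4.84-fold.

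Their second probes gave 5.55 (SE 1.11, adjusted p = 0.00110) for IFR6 and 5.46 (SE 1.08, adjusted p = 0.00105) for IFR7, with 3.30 and 3.27 on slide 2 alone. Each of the 4 unelicited arrays moved both genes by more than 1.5-fold when it was left out. Probe 1 of IFR6 then ranged from 4.50 (without replicate 1) to 6.38 (without replicate 3) and that of IFR7 from 4.05 to 5.99 (the same replicates), while probe 2 ranged from 4.79 to 6.39 for IFR6 and from 4.66 to 6.23 for IFR7. Under quantile normalization the probe 1 rises no longer passed, at 3.25 (adjusted p = 0.0566) for IFR6 and 2.76 (adjusted p = 0.0732) for IFR7.

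IFR5_chr2.CM0249.1110.nc, on the same contig, fell. Its probe 1 read 0.22, 0.32 and 0.01 after 3 h, against 1.23, 1.32, 2.11 and 2.21 in unelicited leaves, and probe 2 read −0.69, −0.31 and −0.68, against 1.26, 1.32, 1.31 and 1.35. The elicited arrays were all below the unelicited ones on both probes, and the unelicited values of probe 2 differed by no more than 0.1. The log2 fold changes were −1.53 (SE 0.35, adjusted p = 0.00264) and −1.87 (SE 0.29, adjusted p = 0.000188), 2.89-fold and 3.66-fold lower. Within slide 2 they were −1.97 and −1.89.

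IFR4_, a name with no locus, rose on both probes. Probe 1 read 2.12, 1.94 and 2.43 after 3 h, against −1.74, −1.52, −1.50 and −1.01 in unelicited leaves, a log2 fold change of 3.60 (SE 0.54, adjusted p = 0.000159), or 12.1-fold, with 3.41 on slide 2 alone. Probe 2 read 1.04, 1.05 and 1.55, against −7.64, −2.61, −2.89 and −2.01. The lowest of these is unelicited replicate 1, where the probe was not well above background. With that array probe 2 averaged 1.21 ± 0.29 after 3 h (SD, n = 3), against −3.79 ± 2.59 in unelicited leaves (SD, n = 4), and rose (SE of the difference 1.14, limma adjusted p = 0.00247). Without it the log2 fold change was 3.72 (adjusted p = 4.05e-05), or 13.2-fold. Slide 2 alone, which does not hold it, gave 3.66, and leaving out unelicited replicate 4 gave 5.59.

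IFR2_chr3.CM0216.30.nd had the smallest rise at 3 h. Probe 1 read 0.58, −0.13 and 0.04 after 3 h, against −1.86, −2.02, −0.71 and −0.23 in unelicited leaves. The groups did not overlap, but the gap between 3 h replicate 2 and unelicited replicate 4 was only about 0.1. The log2 fold change was 1.37 (SE 0.45, adjusted p = 0.0178) on probe 1 and 1.21 (SE 0.36, adjusted p = 0.0112) on probe 2. On slide 2 alone both missed the threshold, at 0.63 (adjusted p = 0.0948) and 0.76 (adjusted p = 0.0655), as they did without 3 h replicate 1, at 1.16 (adjusted p = 0.0725) and 0.99 (adjusted p = 0.0535).

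The remaining 6 probes, of IFR1, IFR10 and IFR9, were too dim to be tested. Both probes of IFR1_chr2.CM0749.400.nc and of IFR10_LjSGA_076819.1 were not well above background on any of the 10 arrays. IFR9_LjSGA_020489.1 was well above background with probe 1 on 1 array at 3 h, 2 at 6 h and 3 unelicited ones, and with probe 2 on 2 arrays, both unelicited and on slide 1. Its probe 1 read −4.74, −4.38 and −4.35 after 3 h, against −3.39 and −3.12 in unelicited leaves of slide 1 and −4.97 and −4.74 in those of slide 2, so the 3 h values lay within the unelicited range. The name IFR_11LjSGA_031126.1 has no digit directly after IFR and falls outside the rule. One of its probes, well above background on all 3 h arrays and 3 of 4 unelicited ones, differed by 1.16 at 3 h (adjusted p = 0.122), which did not pass. Its other probe passed, with a fitted difference of 2.61 (adjusted p = 0.000581), but was well above background on 1 of 3 arrays at 3 h and on 0 of 4 unelicited arrays, so that value is not a measured fold.

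**Figure D2:**
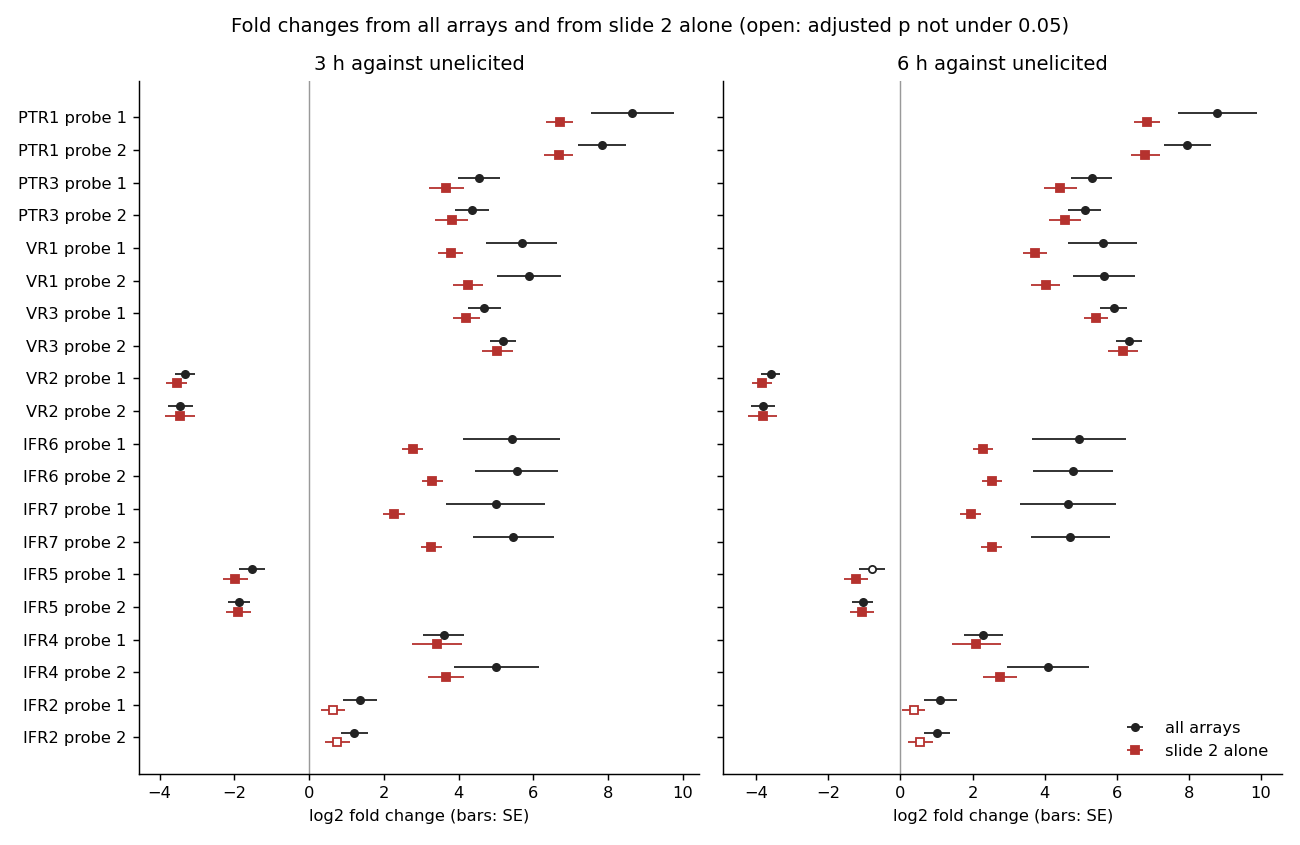
Log2 fold change (horizontal axis, bars are SE) of the 20 tested probes after 3 h (left) and 6 h (right) in GSH against unelicited leaves, from all arrays (circles) and from slide 2 alone (squares), with open symbols where the adjusted p is not under 0.05. The circles of IFR6 and IFR7 lie at 4.66 to 5.55 and their squares at 1.95 to 3.30, and the IFR2 squares are open at both times.

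The same genes were then compared between leaves after 6 h in GSH and unelicited leaves, a comparison that shares its unelicited arrays with the first. PTR1, PTR3, VR1, VR3, IFR6, IFR7, IFR4 and IFR2 were again higher and VR2 lower, while IFR5 was lower on 1 of its probes only. VR3 reached 60.2-fold (probe 1) and 80.9-fold (probe 2) and PTR1 442-fold and 248-fold. Of the 20 probes, 16 were higher, 3 were lower and 1, of IFR5, missed the threshold, and their median was 4.75. Of all tested probes 75.9% passed, 37.5% as higher and 38.4% as lower, with a median of −0.07. From slide 2 alone 14 were higher, 4 were lower and the IFR2 probes did not pass, and their median was 2.54. There 79.1% of all tested probes passed, 38.6% as higher and 40.5% as lower. The 6 h arrays lay entirely above the unelicited ones for 14 probes and entirely below for 3, while 3 overlapped. Of all tested probes 74.3% did not overlap, 36.8% above and 37.5% below.

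PTR1 probe 1 read 9.05, 9.57 and 8.43 after 6 h, all above the unelicited mean of 0.23 ± 2.54 (SD, n = 4). Its log2 fold change was 8.79 (SE 1.10, adjusted p = 3.98e-05), and 6.84 on slide 2 alone. Left out one at a time, unelicited replicates 2, 3 and 4 moved it to 7.66, 9.46 and 9.42. PTR3 probe 1 read 4.98, 5.27 and 4.72 after 6 h, against a mean of −0.32 ± 1.13 (SD, n = 4) in unelicited leaves, a rise of 5.31 (SE 0.56, adjusted p = 1.19e-05) with 4.44 on slide 2 alone. The second probes of PTR1 and PTR3 gave 7.95 and 5.11, with 6.79 and 4.57 on slide 2 alone.

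VR1 probe 1 read 8.95, 9.54 and 9.09 after 6 h and rose by 5.62 (SE 0.96, adjusted p = 0.000349), or by 3.72 on slide 2 alone. Without unelicited replicate 1 or 4 it was 4.97 or 6.40, and for probe 2, which rose by 5.65, it was 5.05 or 6.38. Leaving out unelicited replicate 2 moved probe 1 by nearly as much as leaving out replicate 1. VR3 probe 1 read 4.15, 4.81 and 4.74, against a mean of −1.34 ± 0.63 (SD, n = 4) in unelicited leaves, a rise of 5.91 (SE 0.38, adjusted p = 8.69e-07) with 5.43 on slide 2 alone. VR2 probe 1 read −0.76, −0.66 and −0.20, against a mean of 3.06 ± 0.27 (SD, n = 4) in unelicited leaves, and fell by 3.60 (SE 0.27, adjusted p = 9.11e-07), with −3.83 on slide 2 alone. The vestitone reductase names thus held their split at 6 h, with VR2 12.1-fold lower on probe 1 and 14.0-fold lower on probe 2.

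IFR6 probe 1 read 9.58, 9.72 and 9.21 after 6 h, a rise of 4.95 (SE 1.30, adjusted p = 0.00556) over all unelicited arrays and of 2.30 (SE 0.28) over those of slide 2. IFR7 probe 1 read 9.72, 9.99 and 9.51, a rise of 4.66 (SE 1.33, adjusted p = 0.00875) and of 1.95 (SE 0.29). Each unelicited array again moved these rises when left out, from 4.04 (without replicate 1) to 5.92 (without replicate 3) for probe 1 of IFR6 and from 3.72 to 5.66 (the same replicates) for that of IFR7. For probe 2 the ranges were 4.03 to 5.63 and 3.92 to 5.49. All 4 probes of these genes missed the threshold at 6 h under quantile normalization, with fold changes of 2.07 to 2.73 and adjusted p of 0.0859 to 0.157 in limma.

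IFR5 was nearer its unelicited level at 6 h. Probe 2 read 0.27, 0.80 and −0.28, all below its unelicited values, and fell by 1.04 (SE 0.29, adjusted p = 0.00737), with −1.06 on slide 2 alone. Probe 1 read 0.87, 1.48 and 0.44, where replicate 2 lay within the unelicited range, and its difference of −0.79 (SE 0.35, adjusted p = 0.0634) did not pass. From slide 2 alone it did, at −1.23 (adjusted p = 0.00755).

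IFR4 was uneven at 6 h. Probe 1 read 1.61, 1.71 and −0.76 and probe 2 read 0.87, 0.64 and −0.60, with replicate 3 the low array on both. Probe 1 rose by 2.30 (SE 0.54, adjusted p = 0.00301), or 4.91-fold, and 8.59-fold without that array. Probe 2 rose by 4.09 (SE 1.14, adjusted p = 0.00762), or by 2.81 without unelicited replicate 1, where it was dim, and by 4.68 without unelicited replicate 4. The slide 2 values were 2.11 (adjusted p = 0.0175) for probe 1 and 2.75 (adjusted p = 0.000623) for probe 2. Replicate 3 was the lowest of the 6 h arrays for 15 of the 20 probes, against 42.4% of all tested probes, with a median difference from the other 6 h arrays of −0.43 for these probes and −0.08 for all. Its part in the 6 h values was not tested beyond leaving it out.

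IFR2 had the smallest rise at 6 h too. Probe 1 read 0.07, 0.03 and −0.38 and probe 2 read −0.28, −0.01 and −0.62, and on both the 6 h range overlapped the unelicited one. The fold changes were 1.11 (SE 0.45, adjusted p = 0.0432) and 1.01 (SE 0.36, adjusted p = 0.0256), and on slide 2 alone 0.37 (adjusted p = 0.299) and 0.56 (adjusted p = 0.158). The sign of probe 1 turned under spike-in scaling, which was run on slide 2 alone, to −0.061. That of probe 2 turned when arrays were scaled on probes measured on all of them, to −0.050. The call on probe 1 was lost when any of 8 arrays was left out, the exceptions being unelicited replicates 3 and 4, and that on probe 2 when unelicited replicate 1 or 2 or 6 h replicate 1 or 2 was.

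Between 6 h and 3 h in GSH, 0 of the 20 probes differed at an adjusted p under 0.05 in limma, where 5.35% of all tested probes did, and 4 had an unadjusted p under 0.05. From slide 2 alone 0 passed as well, with 6 at an unadjusted p under 0.05 and 14.8% of all tested probes passing. With the slide as a block 3 of the 20 passed, where 660 of all 3310 tested probes did. These were both VR3 probes, higher at 6 h by 1.22 (adjusted p = 0.0228) and 1.14 (adjusted p = 0.0462), and IFR6 probe 2, lower at 6 h by 0.76 (log2 difference −0.76, adjusted p = 0.0382). Without the block the same VR3 differences had SEs of 0.46 and 0.38 and adjusted p of 0.167 and 0.109.

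The 6 h arrays lay entirely above the 3 h arrays for 4 probes, both of VR3 and both of IFR5, and entirely below for 5, where 38.4% of all tested probes did not overlap, 18.4% above and 20.0% below. The 5 were both probes of IFR4 and of IFR6 and probe 2 of IFR7. The IFR5 differences, higher at 6 h, were 0.75 on probe 1 (SE 0.38, adjusted p = 0.294) and 0.83 on probe 2 (SE 0.31, adjusted p = 0.158). PTR1 differed by 0.14 (SE 1.18) and 0.12 (SE 0.69) and VR1 by −0.07 (SE 1.02) and −0.22 (SE 0.91), and these SEs leave room for a change of either sign. With the smaller SEs of slide 2 alone, 0.33 and 0.35, PTR1 still differed by 0.14 and 0.12.

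Both probes of a name gave the same sign for all 10 tested names in each of the 3 comparisons. Their fold changes differed by a median of 0.26 at 3 h and 0.20 at 6 h. The widest gaps, 1.40 at 3 h and 1.79 at 6 h, were those of IFR4, whose probe 2 was dim on an unelicited array.

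Array scaling cancels when a pair of genes is read on the same array, so the differences between named pairs were also taken per array. The pairs were picked after the values were seen, and genes of opposite response must separate, so these differences are a description with no test. The difference VR1 minus VR2 was 9.52 ± 0.26 after 3 h and 9.73 ± 0.45 after 6 h (SD, n = 3 each), against 0.52 ± 1.97 in unelicited leaves (SD, n = 4). Within slide 2 it was larger than in unelicited leaves by 7.34 after 3 h and by 7.55 after 6 h. VR3 minus VR2 was larger by 8.08 after 3 h, where 2 arrays remained, and by 9.51 after 6 h, or by 7.83 and 9.26 on slide 2 alone. VR1 minus VR3 moved by 0.99 after 3 h and by −0.29 after 6 h with overlapping groups. On slide 2 alone it moved by −0.42 after 3 h, the opposite sign, and by −1.70 after 6 h.

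Within the isoflavone reductases, IFR6 minus IFR5 was larger by 6.95 after 3 h and by 5.74 after 6 h than in unelicited leaves, or by 4.74 and 3.53 on slide 2 alone. IFR7 minus IFR5 was larger by 6.52 and 5.45, or by 4.25 and 3.18 on slide 2 alone. IFR6 minus IFR7 was larger by 0.43 after 3 h and by 0.29 after 6 h, small shifts without overlap, and by 0.49 and 0.35 on slide 2 alone. IFR4 minus IFR5 was larger by 5.13 after 3 h and by 3.08 after 6 h, or by 5.39 and 3.34 on slide 2 alone.

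The names carry contig labels from an earlier genome assembly, which place 8 of the 13 names on 3 contigs that hold more than 1 of them. On contig CM0216 of chromosome 3 the gene models are numbered 20 for PTR3, 30 for IFR2 and 40 for PTR1, so IFR2, with the smallest change of the tested names at 3 h, lies between the PTR names. At 6 h the probe 1 change of IFR5 was smaller still. PTR1 minus IFR2 was larger by 7.28 after 3 h and by 7.68 after 6 h than in unelicited leaves, and PTR3 minus IFR2 by 3.17 and 4.20. Within slide 2 these were 6.07 and 6.47 for PTR1 and 3.04 and 4.06 for PTR3. PTR1 minus PTR3 was larger by 4.11 after 3 h and by 3.48 after 6 h, without overlap, or by 3.03 and 2.40 on slide 2 alone. The next array gene on that contig, the chalcone synthase name CHS03_chr3.CM0216.300.nc, rose by 6.96 and 7.26 on its probes at 3 h.

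On contig CM1255 of chromosome 1 the neighbouring models 310 and 320 are VR3 and VR1, which both rose, while VR2 lies on another contig of chromosome 1. DFOLR08_chr1.CM1255.280.nc, a dihydroflavonol reductase name close by, rose by 4.85 (SE 0.40, adjusted p = 4.14e-06) at 3 h and by 6.15 (SE 0.45, adjusted p = 1.85e-06) at 6 h on its 1 tested probe. On contig CM0249 of chromosome 2 models 1070, 1080 and 1110 are IFR6, IFR7 and IFR5, so rising and falling isoflavone reductase names stand close together. The laccase names that follow, LAC09_chr2.CM0249.1200.nc and LAC07_chr2.CM0249.1210.nc, had log2 fold changes of −4.46 and −5.56 at 3 h, both called, each on 1 tested probe. From unelicited means of −1.77 and −1.16 they fell to near the 3 h level of the untested IFR1 probes (−6.59 and −6.73). The sizes of these falls are therefore not taken as measured folds. No genome of that assembly was used here, so distances and sequences of these genes are not given.

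**Figure D3:**
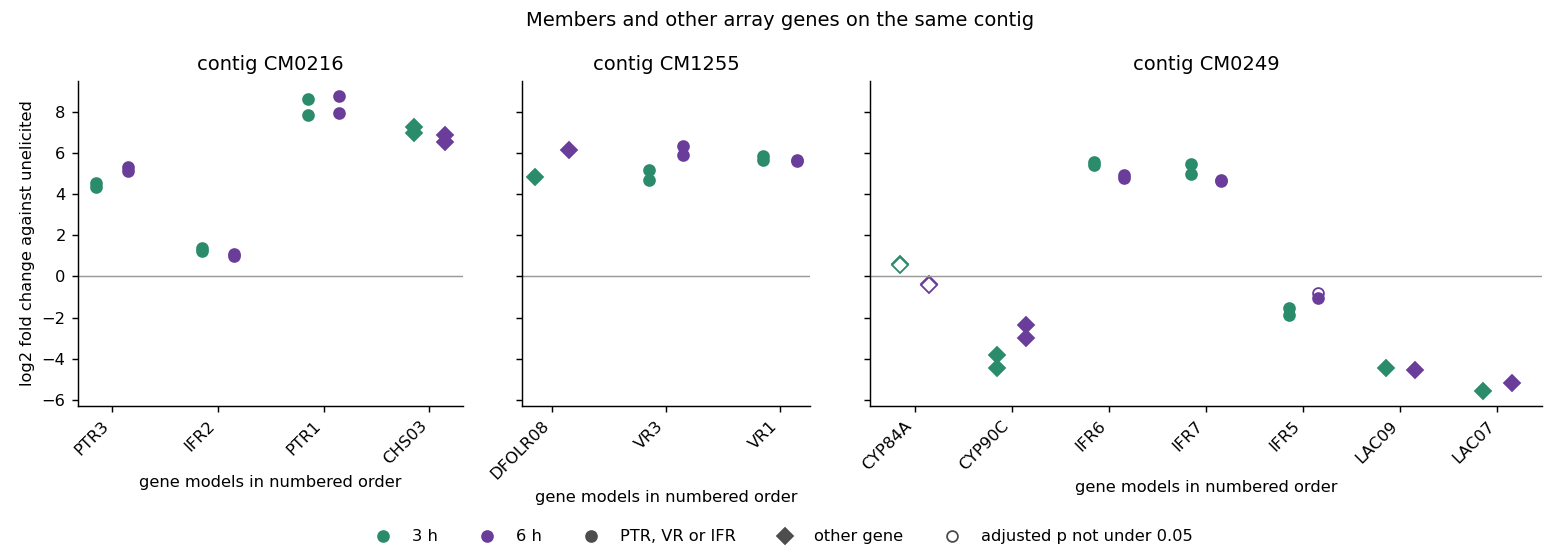
Log2 fold change against unelicited leaves (vertical axis) of each tested probe of the PTR, VR and IFR names (circles) and of the other array genes (diamonds) on the 3 contigs, after 3 h (left point of a gene) and 6 h (right point) in GSH, with genes in the order of their model numbers and not to scale along the contig. IFR2 lies at 1.01 to 1.37 between PTR3 and PTR1, and IFR5 lies below 0 next to IFR6 and IFR7.

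Over the 10 arrays the brightest probe of each class was set against 3290 other tested probes by Pearson's r, as a description only, since all points share the contrast between elicited and unelicited leaves and the difference between slides. The signals most like VR1 were those of CYP83E4_ntc (r = 0.995), CYP81E6_ntc (r = 0.994) and LjI2H (r = 0.993). CYP81E and I2H names are read as isoflavone hydroxylases, the enzymes just before IFR in the pathway. Most like PTR1 were LjAUX-IAA12, BGLUG2_LjSGA_050606.1 and LjHD-PHD10 (r = 0.990, 0.989 and 0.989), and at the head of the order for IFR7 were LjZF-C2C2-GATA12_est and NIT09_chr3.CM0164.160.nd (r = 0.994 each). An r over 0.95 was reached by 8.84% of the probes for PTR1, 5.99% for VR1 and 2.07% for IFR7, so such likeness was common for PTR1 and less so for IFR7.

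For the rest of the pathway, the same fit was counted over lists of names at each step. Phenylpropanoid entry held the names starting with PAL, C4H, CYP73A or 4CL, and coumarate ligase (CoumLig) names formed a list of their own. At 3 h, 45 of 47 probes of phenylpropanoid entry were higher and 2 lower, and in chalcone synthesis 50 of 80 were higher, 20 lower and 10 did not pass. Hydroxylation held the names starting with CYP81E or I2H, which leaves out LjI2H. Isoflavone formation (CYP93C and HID names) had 12 higher and 6 lower of 18, hydroxylation 6 and 4 of 10, and O-methylation 7 and 2 of 11. On slide 2 alone the last 2 lists were balanced, with 6 higher and 6 lower of 12 in hydroxylation (median 0.45, against 5.03 from all arrays) and 5 and 5 of 13 in O-methylation (median 0.62, against 2.34). There phenylpropanoid entry again had 45 higher and 2 lower of 47, chalcone synthesis 51 and 26 of 81, and isoflavone formation 11 and 6 of 18. The CoumLig list was mixed, with 11 of 28 probes higher and 15 lower at 6 h (median −0.79). At 3 h 13 were higher, 8 lower and 7 did not pass (median −0.50), with 13 higher and 6 lower on slide 2 alone. I2H3_chr2.CM0250.30.nc, an isoflavone hydroxylase name, had the largest rise of the hydroxylation list at 5.76 (SE 0.46, adjusted p = 1.67e-06). Falls were found beside rises in each of these lists, as they were among the VR and IFR names, for example I2H1_chr2.CM0250.70.nc at −2.65 (SE 0.47, adjusted p = 0.000487), on a probe well above background on 1 of 3 arrays at 3 h.

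Dirigent proteins are the family to which the enzyme closing the pterocarpan ring, between VR and PTR, belongs. Of 18 tested Dir probes 13 were higher, 4 lower and 1 did not pass at 3 h, and 10 were higher, 5 lower and 3 did not pass at 6 h. On slide 2 alone 13 were higher and 4 lower at 3 h, and 10 higher and 4 lower at 6 h. Dir11_LjSGA_033937.1 rose by 9.29 (SE 0.60, adjusted p = 4.04e-07) at 3 h and by 10.18 (SE 0.60) at 6 h. Dir09_LjSGA_018029.2, not well above background on any 3 h array, was at least 64.5-fold lower at 3 h from all arrays. That bound takes the lowest well measured signal of each 3 h array as the highest level Dir09 could have had. Its fitted log2 fold change was −6.81 from all arrays and −5.51 on slide 2 alone, so the bound does not hold for slide 2 alone. In the competing flavanone and tannin branch 2 of 18 probes were higher, 14 lower and 2 did not pass at 3 h (median −2.26), and 2 were higher, 12 lower and 4 did not pass at 6 h (median −1.70). From slide 2 alone 0 were higher and 16 lower at 3 h, and 2 higher and 14 lower at 6 h. The share of higher probes was thus 16 of 20 for the PTR, VR and IFR names at 3 h and 2 of 18 for that branch list, with 37.5% of all tested probes higher. DFOLR and LDO names formed lists of their own. At 3 h the LDO list had 8 higher and 4 lower of 12 (median 2.01), and 8 and 5 of 13 on slide 2 alone. The DFOLR list had 2 higher, 6 lower and 7 not passing of 15 (median −0.86), and 1, 5 and 9 on slide 2 alone. At 6 h these lists had 8 higher and 4 lower (LDO) and 1 higher and 2 lower (DFOLR). These counts describe the lists, and no test of one list against another was made.

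**Figure D4:**
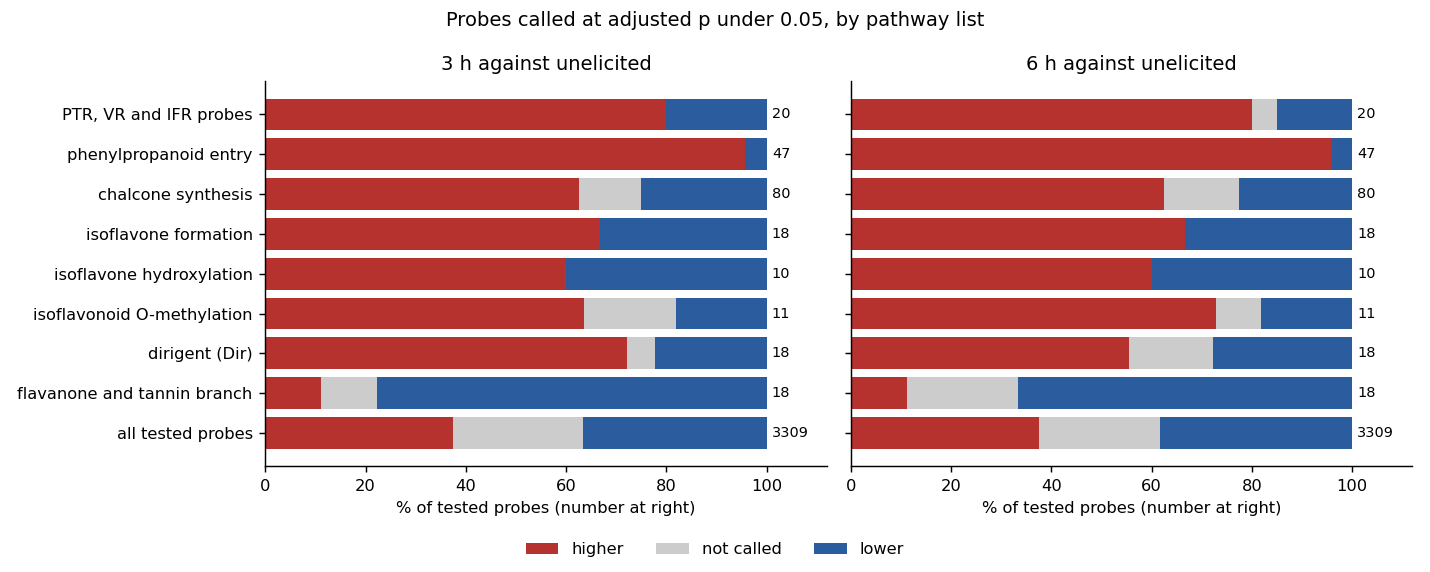
Percent of tested probes (horizontal axis) called higher (red), not called (grey) and lower (blue) in limma at an adjusted p under 0.05 after 3 h (left) and 6 h (right) in GSH against unelicited leaves, with the number tested at the right of each bar. The PTR, VR and IFR bar is mostly red at both times, with 16 of 20 probes higher, and the bar of the flavanone and tannin branch is mostly blue, with 14 of 18 lower at 3 h and 12 of 18 at 6 h. The CoumLig, DFOLR and LDO lists have no bar of their own.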

How the data were processed

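Each of the 10 RNA samples was hybridised to its own one-colour Agilent array with Cy3 as the dye. The deposited values are linear spot intensities from Agilent Feature Extraction 10.7.3.1, background-subtracted and spatially detrended per the file headers, and the deposited value table holds the same processed intensities. Normalization between arrays is not given in the sources used here.

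Here log2 of the intensity was taken, minus that of the array's own 75th percentile (227.25 to 1022.5 over arrays, control spots left out). Outlier spots (4 to 64 per array) were left out. The 3310 probes that all arrays of 1 or more groups measured well above background were fitted over all 10 arrays with limma 3.58.1 in R 4.3.3 (lmFit, eBayes), two-sided, Benjamini-Hochberg over all tested probes at 0.05. The number of arrays limits the precision. Alternatives changed the background correction, scaling, filter, variance model and blocks, used 1 probe per name, or left out an array. The code was tested on simulated data. The PTR, VR and IFR names, the pathway lists and the rules were chosen with earlier results of these data known. The Dir, CoumLig, DFOLR and LDO lists and the gene pairs were added after seeing the data. All 20 tested PTR, VR and IFR probes could be named, with 1 rise and 1 fall per pathway list and the 3 genes most like each class, of which a part is printed. None of the array's PTR, VR and IFR names matched 40429 RefSeq genes of LjGifu_v1.2. Plots were made in Python 3.11.15 with matplotlib 3.10.9.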

Additional observations from a re-analysis of the deposited data

Results flagged for a closer look

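IFR4 probe 2 stood apart in the unelicited arrays. Its lowest value, −7.64 in unelicited replicate 1, lay far below the other 3, between −2.89 and −2.01, and this gap made up 0.844 of the group's whole range, above Dixon's critical value for 4 samples. The probe was not well above background on that array, while IFR4 probe 1 read −1.74 there, inside the spread of its own group. Groups of 4 were examined for 26 probes, of which chance alone would single out about 1 in 20.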

How the results depend on the processing

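Over 468 recomputed values of the 20 probes at 3 h, 457 kept direction and call and 11 lost the call. At 6 h 432 of 468 kept both, 25 lost the call, 9 gained it and 2 changed sign. Between 6 h and 3 h, 453 of 468 did, 3 gained a call and 12 changed sign. The cause of these changes was not tested. With 1 probe per name, which tests 10 names, 10 were called at 3 h and 9 at 6 h, where 1472 and 1497 of all 1999 tested probes were. In the pathway lists 87 of 97 tested probes were then called at 3 h, against 170 of 184. With the slide as a block 3 of 20 were called between 6 h and 3 h, against 0 without it. Of all tested probes 660 were then called, against 177.

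The labels do not say whether equal replicate numbers mark paired samples. Deviations of equal-numbered arrays correlated at −0.042 to 0.057 in 9 pairs. Such low values show no shared deviation, but they cannot show that the samples were unpaired. With the replicate block 20, 19 and 0 of the 20 probes were called in the 3 comparisons, where 2432, 2461 and 80 of all 3310 tested probes were. In the pathway lists 168 of 184 were called at 3 h.

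Spike-in scaling was run on slide 2 alone. Sign changes at 6 h against unelicited leaves were IFR2 probe 1 at −0.061 under spike-in scaling and IFR2 probe 2 at −0.050 when scaled on probes measured on all arrays. Between 6 h and 3 h, PTR1 turned to −0.10 and −0.17 on its probes under quantile normalization, −0.21 and −0.24 under spike-in scaling and −0.13 and −0.19 without 6 h replicate 2, and probe 2 to −0.073 without 3 h replicate 1. With single arrays left out, PTR1 ranged from −0.13 to 0.44 and −0.19 to 0.45 on its probes and IFR2 probe 2 from −0.35 to 0.020. VR1 turned to 0.28 and 0.27 and IFR7 probe 1 to 0.15 under normexp, VR1 probe 1 to 0.051 without 6 h replicate 1, and IFR2 probe 2 to 0.020 without 3 h replicate 1. Scaling on probes measured on all arrays moved the median of all tested probes to −1.11 at 3 h and −1.13 at 6 h. There 14 members rose and 4 fell at both times, where 2461 (3 h) and 2515 (6 h) of all 3310 tested probes were called. The VR2 falls and the PTR, VR1 and VR3 rises held under each scaling. So did the IFR5 falls, except that of probe 1 at 6 h, which did not pass with the main scaling or under normexp. Normexp used median spot signals. Dim spots limit IFR1, IFR9 and IFR10.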
